A study of Mus musculus with 2 samples.

Results

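Collagen genes were taken as every gene whose symbol is Col, a number, the letter a and a number. The rule gave 44 of the 31053 genes in the count tables and used no measured value. The data are single-cell RNA counts from 2 droplet libraries of adult mouse cochlea, 1 per condition. Explants came from wild-type C57BL/6J mice, 4 to 6 weeks old, and spent 4 days with a mix of reprogramming agents (cocktail) or with vehicle. For the next 2 weeks both groups carried an adenovirus that overexpresses Atoh1 (ad.Atoh1). Agents of the cocktail were VPA (valproic acid, 1.5 mM), LiCl (8 mM), FSK (forskolin, 20 µM) and the siRNAs siFIR and siMxi1 (0.02 µM each). The vehicle was sterile water with 0.1% DMSO.

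The sensory epithelium of 5 cultures per condition was dissociated and captured as 1 library, and cells were not assigned to cultures here. The comparison of conditions therefore has no replicate check, no p-value was computed, and every interval (95%) covers counting error only. Cocktail and vehicle differ in every component at once, and no library without ad.Atoh1 was analysed here. After filtering, 1329 cocktail cells with 19531019 UMIs (counts of distinct RNA molecules) and 1584 vehicle cells with 23017362 UMIs remained. Median depths were 10391 and 12267 UMIs per cell, and the libraries shared 0 cell barcodes. A gene level is given as CPM, the UMIs of the gene per 1000000 UMIs of the cells summed, and a log2 ratio is cocktail over vehicle. In a library sum, fewer cells of a type and less RNA per cell cannot be told apart.

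Collagens are extracellular proteins built from chains wound into a triple helix, in which glycine recurs at a fixed spacing. Fibrillar collagens form the tensile fibrils of bone, skin and cartilage, collagen IV forms the sheet of basement membranes, and fibril-associated collagens coat fibril surfaces. In the cochlea, collagens II, IX and XI are known as parts of the tectorial membrane, the extracellular sheet over the hair cells, and collagen IV chains surround vessels, nerve and the epithelial base.

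The repeat that defines the family is visible in the coding sequences of the chains the results turn on. Each stretch below has 24 codons of the GENCODE M21 transcript, read 5′ to 3′. Capitals mark glycine codons (GGN) at the first position of each set of 3 codons. The stretches of Col1a1 (codons 168 to 191), Col2a1 (codons 201 to 224) and Col9a2 (codons 180 to 203) open the longest unbroken repeat of each gene. That of Col4a1 (codons 151 to 174) spans the end of its first repeat and the interruption after it.
Col1a1: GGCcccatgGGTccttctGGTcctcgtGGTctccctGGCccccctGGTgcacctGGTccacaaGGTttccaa
Col2a1: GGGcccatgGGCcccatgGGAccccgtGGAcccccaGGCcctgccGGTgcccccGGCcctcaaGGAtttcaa
Col9a2: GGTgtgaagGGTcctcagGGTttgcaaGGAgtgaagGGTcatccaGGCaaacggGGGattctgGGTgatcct
Col4a1: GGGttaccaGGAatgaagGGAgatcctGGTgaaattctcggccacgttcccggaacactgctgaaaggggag

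The longest unbroken repeat held 338 glycine-first sets in Col1a1, 339 in Col1a2 and Col2a1, and 344 in Col3a1. Among the 11 fibrillar genes it ranged from 216 to 344 sets with a median of 338. The 6 collagen IV genes ranged from 39 to 66, with 40 in Col4a1 and 66 in Col4a2. Col9a1, Col9a2 and Col9a3 had 113 each. Col4a1 had 22 repeats of at least 5 sets, so a fibrillar chain carries a long unbroken repeat and a collagen IV chain carries many short ones.

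Of the 44 collagen genes, 40 had at least 20 UMIs over both libraries and 34 had at least 200, the level at which a gene is described singly. The 10 others were Col4a3 (161 UMIs), Col5a3 (140), Col7a1 (134), Col8a2 (124), Col4a6 (116), Col19a1 (80), Col6a6 (19), Col6a5 (5), Col6a4 (4) and Col10a1 (0). Col10a1, the collagen of hypertrophic cartilage, was thus not detected, which at a floor of 3 UMIs allows a cocktail level of up to 0.154 CPM and a vehicle level of up to 0.130 CPM (exact Poisson upper limits 0.189 and 0.160 CPM).

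Collagen transcripts were scarcer in the cocktail library, at 15.2 against 24.1 collagen UMIs per 10000 UMIs, a log2 ratio of −0.67 (−0.69 to −0.65). Among the 40 genes with at least 20 UMIs, the interval of the ratio lay below 0 for 22, above 0 for 8 and held 0 for 10. The share of all genes with such intervals was not computed, here or for the counts below. By sign alone, 27 of the 40 ratios lay below 0, beside 55.7% of all genes. At least 2-fold lower were 6 genes (Col1a1, Col1a2, Col5a3, Col15a1, Col22a1 and Col28a1), beside 4.85% of all genes with at least 20 UMIs. At least 2-fold higher was 1 gene, Col19a1, beside 3.55% of all genes. That call rests on 52 cocktail and 28 vehicle UMIs. The median log2 ratio was −0.27 over the collagens and −0.03 over all 17260 genes counted.

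Cells with a UMI of Ifitm5 or Ibsp, genes of bone-forming cells, numbered 30 in the cocktail library (2.26% of cells, 1.53 to 3.21) and 100 in the vehicle library (6.31%, 5.17 to 7.63; Clopper-Pearson). They held 4.17% and 11.5% of the UMIs of their library. With these cells left out, the summed collagen level was 13.1 and 14.9 per 10000, a log2 ratio of −0.19 (−0.21 to −0.16). The intervals then lay below 0 for 15 genes, above 0 for 11 and held 0 for 14, and the median was −0.07 beside −0.04 over all genes. By sign, 21 of the 40 ratios lay below 0, beside 57.0% of all genes. At least 2-fold lower were 3 genes (Col5a3, Col15a1 and Col28a1), beside 5.06% of all genes, and Col19a1 was the 1 gene higher, beside 3.19%. The plot of ratios with and without bone cells shows which genes moved.

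**Figure D1:**
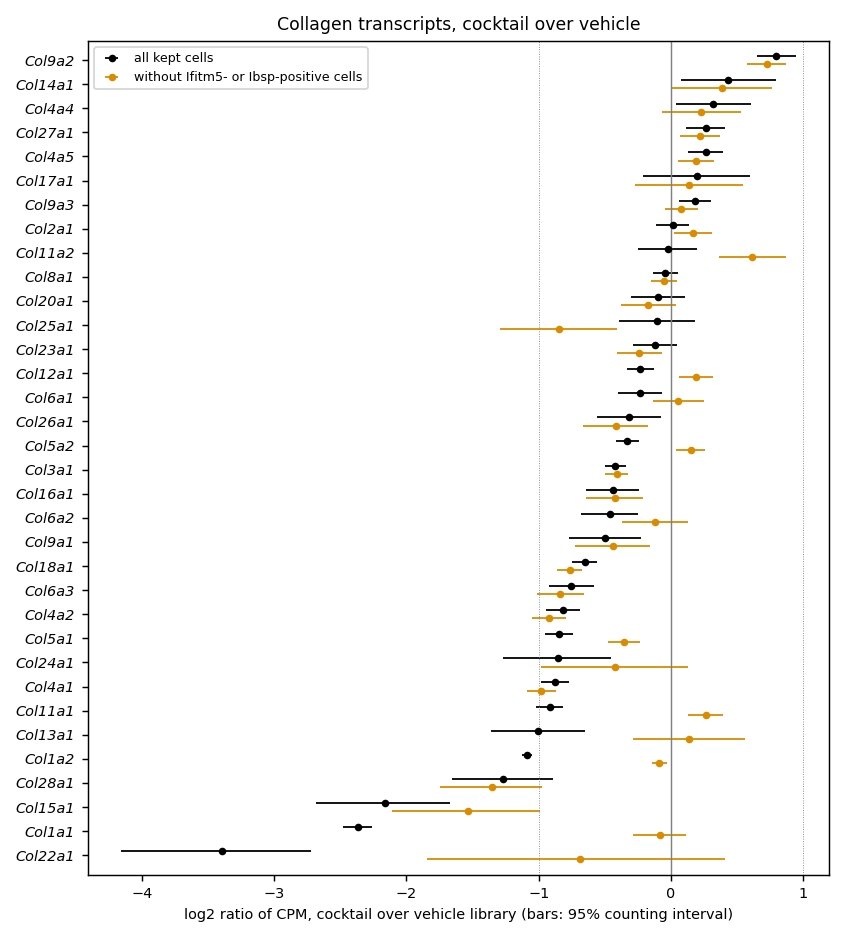
Log2 ratio of CPM, cocktail over vehicle library, for the 34 collagen genes with at least 200 UMIs, in all kept cells (black) and without Ifitm5- or Ibsp-positive cells (orange), with bars for the 95% counting interval. Col1a1 lies at −2.37 with and at −0.09 without these cells, and Col4a1 lies at −0.87 and −0.98.

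Collagen I, the main collagen of bone and dermis, made up most of the collagen RNA in the bone-marker cells, where Col1a2 alone held 2550 of 5060 cocktail and 12848 of 25153 vehicle collagen UMIs. Col1a1 (chr11:94936224-94953042, plus strand, GRCm38) had 771 UMIs in the cocktail library (39.5 CPM) and 4688 in the vehicle library (204 CPM). The log2 ratio was −2.37 (−2.48 to −2.26). Bone-marker cells held 48.4% of the cocktail and 90.2% of the vehicle UMIs, and without them the levels were 21.3 and 22.6 CPM, a ratio of −0.09 (−0.28 to 0.11). Col1a2, its partner chain, had 375 and 798 CPM and a ratio of −1.09 (−1.13 to −1.05). Without the bone-marker cells it had 255 and 271 CPM and a ratio of −0.09 (−0.15 to −0.03). Summed over all cells outside the bone-marker cells, both chains of collagen I were thus close in the 2 libraries. Within the marker gates described below, Col1a2 was not. Its ratio was −1.42 in Otor- and Emcn-marked mesenchyme and −1.40 in glia-like cells. It was 3.42 in Gal- and Cck-rich epithelium (25 and 2 UMIs) and 2.62 in the remaining epithelium (58 and 9 UMIs). In both epithelial gates most of the cocktail UMIs lay in 1 cell.

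Other fibrillar genes differed in how far they shifted. Col11a1, a chain of thin fibrils with collagen II or V, had 58.9 CPM in cocktail and 111 CPM in vehicle, a ratio of −0.92 (−1.02 to −0.82). Its ratio without bone-marker cells was 0.26 (0.13 to 0.40), so its sign turned with the removal of cells that held 65.0% of its vehicle UMIs. Col5a2 went from −0.33 to 0.15 and Col5a1, its partner in fibrils that limit the width of collagen I fibrils, from −0.84 to −0.36. Col24a1, a fibrillar gene known from bone, had −0.85 (−1.27 to −0.45) with and −0.42 (−0.98 to 0.13) without these cells. Col3a1, the collagen of loose connective tissue, hardly moved. It had 103 and 138.5 CPM with the bone-marker cells and a ratio of −0.42, and −0.41 without them.

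Genes of the other classes showed the same pattern where bone-marker cells held much of their RNA. Col22a1, a fibril-associated gene known from tissue junctions, had 19 cocktail UMIs and 236 vehicle UMIs, a ratio of −3.40 (−4.16 to −2.72). Bone-marker cells held 91.1% of the vehicle UMIs, and the 12 and 21 UMIs outside them gave −0.68 (−1.84 to 0.40). Col13a1, a membrane-spanning collagen, had 97 and 229 UMIs. Its ratio went from −1.002 (−1.36 to −0.65), just outside the 2-fold call, which adds 0.5 to each count, to 0.14 (−0.29 to 0.56). Col12a1, which binds collagen I fibrils, went from −0.23 to 0.19. Col25a1 went the other way, from −0.10 to −0.84, and 1 cocktail bone-marker cell held 38.1% of its cocktail UMIs.

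**Figure D2:**
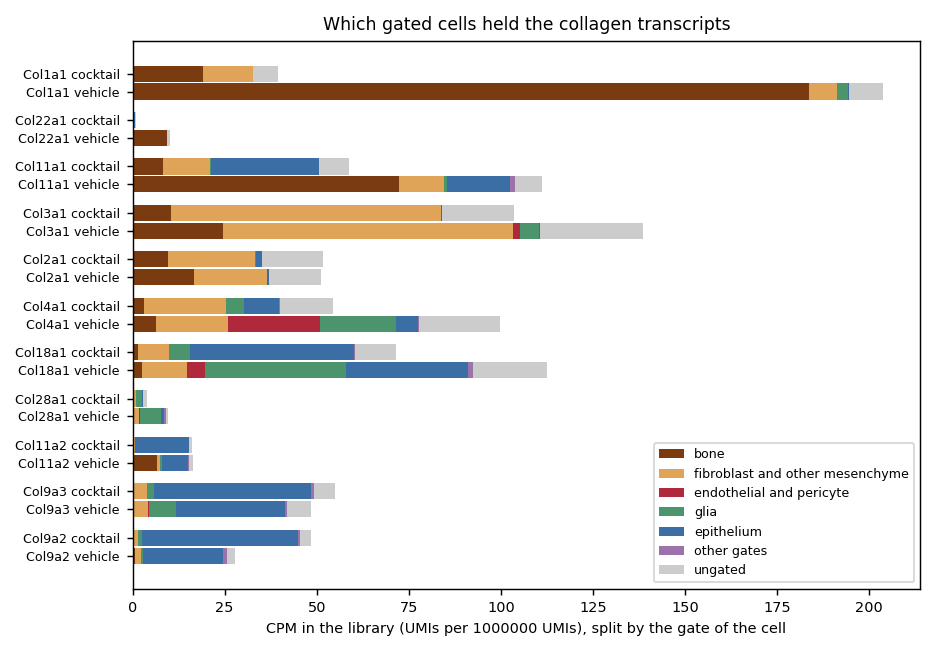
Level of 11 collagen genes in each library (CPM, bar length), split by the marker gate of the cells that held the UMIs. Bone-marker cells make up most of the vehicle bar of Col1a1 (204 CPM) and of Col22a1 (10.3 CPM), and endothelial- and pericyte-like segments of Col4a1 are present in the vehicle library alone.

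Collagen level also differed among the bone-marker cells themselves. Per 10000 UMIs of the cell, Col1a1 ran from 0 to 42.9 in the 30 cocktail cells with a median of 0, and from 0 to 158 in the 100 vehicle cells with a median of 2.54. It was detected in 12 of 30 and in 61 of 100 cells, at median depths of 25882 and 25377 UMIs. Col1a2 was detected in 30 of 30 and 83 of 100 cells, with medians of 26.5 and 44.4. Col22a1 was detected in 4 of 30 and 38 of 100 cells. Other collagens were closer in these cells: Col5a2 had medians of 3.31 and 3.65, Col12a1 2.50 and 2.38, and Col11a1 2.12 and 2.70. The plot of single bone-marker cells shows that the vehicle library has a tail of cells with high Col1a1, Col11a1 and Col22a1 that is not seen among the 30 cocktail cells.

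Summed over the bone-marker cells, Col1a1 stood at 458.2 CPM in cocktail and 1602 CPM in vehicle, Col11a1 at 200.2 and 630.1, and Col13a1 at 1.23 and 50.8. Col24a1 was alike at 34.4 and 34.9 CPM. The gate rests on few transcripts in part of the cells: 12 of the cocktail and 26 of the vehicle cells carried a single UMI of Ifitm5 or Ibsp. Of 8 further bone genes used as a check, at least 3 were detected in 3 of those 12 and 5 of those 26 cells, against 16 of the 18 and 70 of the 74 cells with 2 or more UMIs. In the latter, Col1a1 stood at 570 and 2040 CPM. Alpl, the alkaline phosphatase of mineralising osteoblasts, was detected in 1 of 30 cocktail cells and 57 of 100 vehicle cells. Runx2, an osteoblast transcription factor, was detected in 24 of 30 and 81 of 100. The part of this difference in bone-cell makeup in the collagen ratios was not tested. Outside the gate, 32 cocktail and 54 vehicle cells had at least 3 of the check genes.

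**Figure D3:**
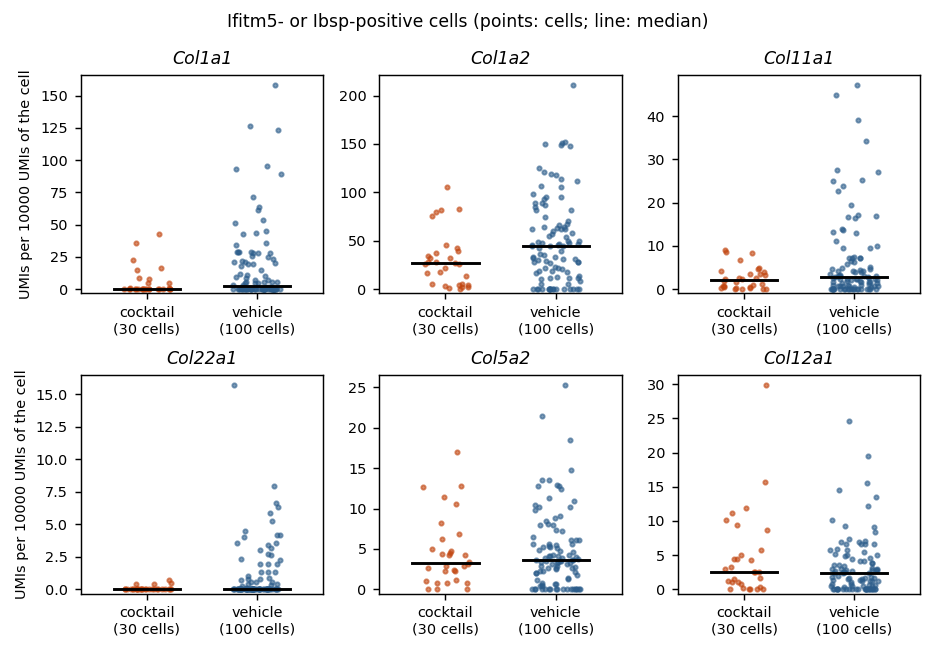
UMIs per 10000 UMIs of the cell for 6 collagen genes in each Ifitm5- or Ibsp-positive cell of the cocktail (30 cells) and vehicle (100 cells) library, with a line at the median. For Col1a1 the highest vehicle cell lies at 158 and the highest cocktail cell at 42.9, while the medians of Col5a2 lie at 3.65 and 3.31.

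To see which cells carried each chain, cells were sorted into gates by marker genes, none of them a collagen. Apart from the bone gate and the Gal and Cck gate, a gate needed at least 3 UMIs from at least 2 markers and 5 marker UMIs per 10000. The bone gate needed only a UMI of Ifitm5 or Ibsp. The Gal and Cck gate needed at least 20 UMIs of Gal and 10 of Cck per 10000 UMIs of the cell. Each cell went to the first gate it passed. The names are those of the markers and stand for look-alikes, since no reference cells were present. The Gal and Cck gate used no epithelial marker, and 174 of the cells that passed it also passed the Epcam and keratin gate. The labelled tissue is sensory epithelium, and Epcam-bearing or other epithelial gates held many cells, but the hair cell gate held 2 cocktail and 17 vehicle cells and the Epyc supporting cell gate 10 and 9. In the neuron gate, 23 of 40 cells also passed the hair cell gate. The chondrocyte gate (Acan, Cnmd and others) held 9 cells, and none had a UMI of Col2a1, so it is called by its markers and not ranked. Ungated cells, 391 and 361, had a median of 3498.5 UMIs and held 18.0% of all collagen UMIs.

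Over both libraries, bone-marker cells had 87.5 collagen UMIs per 10000, fibroblast-like cells (Dcn, Lum) 46.2 and Otor- and Emcn-marked mesenchyme 44.4. Endothelial-like cells had 25.02, pericyte-like cells 24.7 and glia-like cells 19.6. Epithelial gates lay between 4.87 (Gal- and Cck-rich epithelium) and 9.20 (Epyc supporting cells), and the neuron and macrophage gates at 0.70 and 0.31. Bone-marker cells made up 35.5% of collagen UMIs with 8.12% of all UMIs. Among 15 gates with at least 10 cells, the gate with the highest level had an interval above that of the next gate for 15 of the 34 genes, and was the same gate in both libraries for 16.

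**Figure D4:**
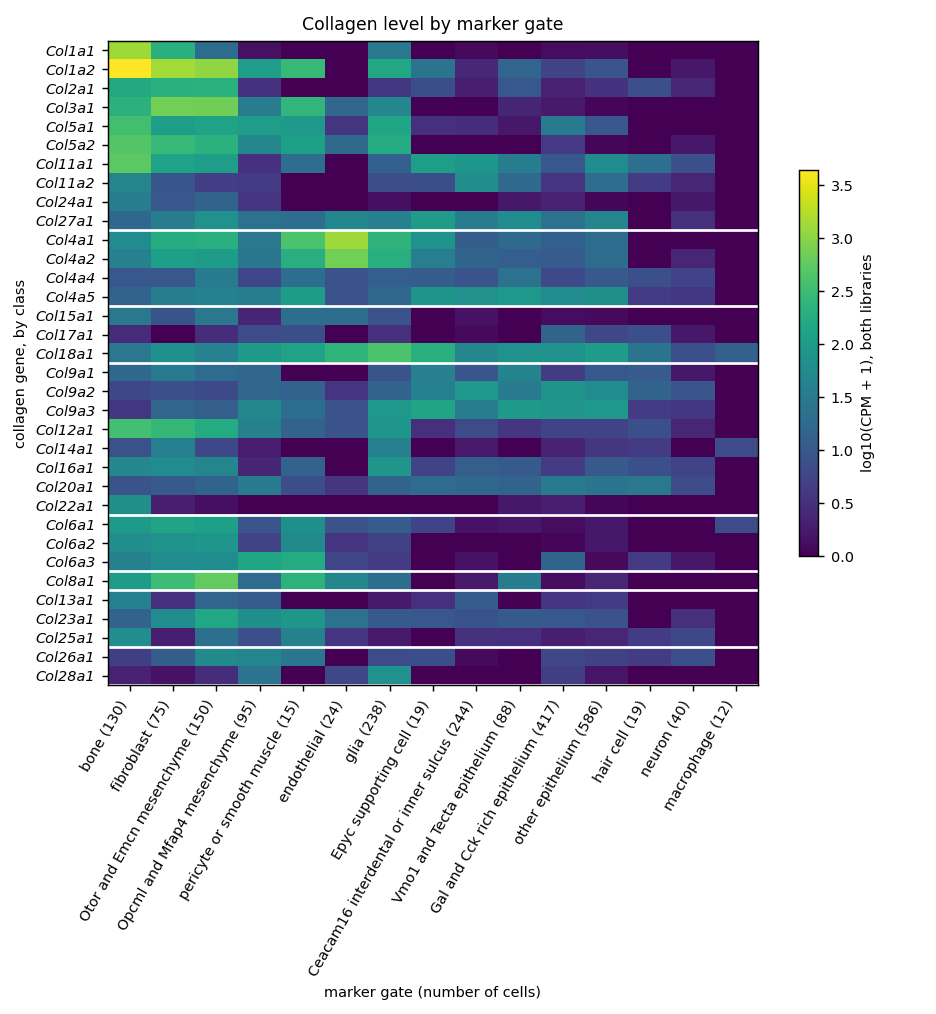
Level of the 34 collagen genes with at least 200 UMIs (rows, white lines part the classes) in 15 marker gates with at least 10 cells (columns, number of cells in brackets), as log10(CPM + 1) over both libraries. Col1a1 and Col1a2 are brightest in bone-marker cells, Col4a1 and Col4a2 in the 24 endothelial-like cells, and Col9a2 and Col9a3 in epithelial gates.

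Most fibrillar collagens were highest in mesenchymal gates. Col1a1 had 1332 CPM in bone-marker cells and 205 CPM in fibroblast-like cells, against 0.335 CPM (2 UMIs in 417 cells) in Gal- and Cck-rich epithelium. Col1a2 had 4459 CPM in bone-marker and 1373 CPM in fibroblast-like cells. Col5a1 (345 CPM), Col5a2 (475 CPM), Col11a1 (529 CPM) and Col24a1 (34.7 CPM) were also highest in bone-marker cells, each with an interval above that of the next gate. Col3a1 had 739 CPM in fibroblast-like cells and 712 CPM in Otor and Emcn mesenchyme, and these intervals overlapped. Col27a1, a fibrillar gene known from cartilage, was highest in the 19 Epyc supporting cells (101 CPM), with an interval that overlapped that of Otor and Emcn mesenchyme (68.7 CPM).

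Basement membrane collagens divided by chain. Col4a1 (chr8:11198423-11312826, minus strand) and Col4a2 (chr8:11312805-11449287, plus strand) form the common collagen IV of vessels and nerve. They were highest in endothelial-like cells, Col4a1 at 1286 CPM (406 in pericyte-like cells) and Col4a2 at 737 CPM (203 in pericyte-like cells). Across the 15 gates their levels had a Spearman rho of 0.98, a description over gates that share 2 libraries. The genes start head to head, and their annotated first bases overlap. The shared stretch is shown because both transcripts start in it. It lies at chr8:11312805-11312826 (GRCm38.p6, RefSeq promoter table, plus strand) and has 22 bases, with no capitals.
Col4a1 and Col4a2: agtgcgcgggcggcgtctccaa

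The 2 other collagen IV pairs also lie head to head, with 72 bases between the starts of Col4a4 and Col4a3 on chromosome 1 and 1309 between those of Col4a6 and Col4a5 on chromosome X. Their rho across gates was 0.80 for Col4a3 and Col4a4 and 0.86 for Col4a5 and Col4a6. Col4a5 reached 105 CPM in pericyte-like cells and 87.7 CPM in Vmo1- and Tecta-marked epithelium, and Col4a4 29.7 CPM in Otor and Emcn mesenchyme. Col18a1, the source of endostatin, was highest in glia-like cells (412 CPM) and next in endothelial-like cells (243 CPM), with separate intervals. Col15a1, its relative in vessel basement membranes, was near equal in bone-marker cells (28.1 CPM) and Otor and Emcn mesenchyme (27.2 CPM). Col17a1, a hemidesmosome collagen of epithelia, was highest in Gal- and Cck-rich epithelium (13.6 CPM).

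The CCAAT motif, on either strand, was found within 250 bases before the start in 13 of the 35 collagen promoters in the RefSeq table (37.1%) and in 33.9% of all 32851 promoters there. The shares are close, and a match is a description of letters.

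The collagens of the tectorial membrane and cartilage did not run together. Col2a1 (chr15:97975602-98004695, minus strand), the chain of type II fibrils, was highest in Otor and Emcn mesenchyme (210 CPM) and fibroblast-like cells (204 CPM), with overlapping intervals, and stood at 1.02 CPM in Ceacam16-marked cells. In those cells, whose markers are those of interdental and inner sulcus epithelium, Col9a2 had 87.9 CPM and Col11a2 61.0 CPM, the highest of the 15 gates, and Col11a1 had 81.0 CPM. Col9a2 did not separate from Gal- and Cck-rich epithelium (75.6 CPM) by its interval, while Col11a2 did from bone-marker cells (44.6 CPM). Col9a3 was highest in Epyc supporting cells (132 CPM, next 94.0 in Vmo1- and Tecta-marked epithelium). Col9a1 was highest in Vmo1- and Tecta-marked epithelium (43.5 CPM, next 37.4 in Epyc supporting cells). For both genes these intervals overlapped. In the vehicle library alone, where the 9 Epyc supporting cells were too few to rank, Col9a3 was highest in glia-like and Col9a1 in fibroblast-like cells. Across gates Col2a1 had a rho of 0.87 with Col9a1, 0.73 with Col11a1 and −0.04 with Col9a2, and Col9a2 had 0.75 with Col9a3 and 0.25 with Col9a1.

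Between libraries, Col2a1 was nearly equal at 51.7 and 51.3 CPM (ratio 0.01, −0.11 to 0.13). Col9a2 was higher in cocktail at 48.4 against 27.9 CPM, a ratio of 0.80 (0.65 to 0.94) that held without bone-marker cells (0.72, 0.58 to 0.87). Col9a3 had 54.9 and 48.4 CPM and a ratio of 0.18, and Col9a1 had 9.22 and 13.03 CPM and −0.50 (−0.77 to −0.23). The 3 chains of collagen IX therefore did not share 1 ratio. Col11a2 had 16.1 and 16.4 CPM with bone-marker cells and 16.8 and 10.99 CPM without them, when its ratio was 0.61 (0.36 to 0.87). Summed over these 6 genes, the ratio went from −0.16 to 0.27 when the bone-marker cells were left out.

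The basement membrane genes Col4a1, Col4a2 and Col18a1 kept lower levels in the cocktail library without bone-marker cells. Col4a1 had 54.4 and 99.7 CPM and a ratio of −0.87 (−0.98 to −0.77), and −0.98 (−1.09 to −0.87) without these cells. Col4a2 had 37.9 and 66.7 CPM, with −0.81 and then −0.92. Col18a1 had 71.6 and 113 CPM, with −0.65 and then −0.77 (−0.86 to −0.67). The gates that hold these genes differed in size: endothelial-like cells numbered 0 in cocktail and 24 in vehicle, pericyte-like cells 0 and 15, and glia-like cells 53 and 185. With the endothelial-, pericyte- and glia-like cells left out as well, the ratios were −0.30 for Col4a1, −0.27 for Col4a2 and −0.30 for Col18a1. Col4a5 did not follow them, with 48.6 and 40.6 CPM and a ratio of 0.26 (0.13 to 0.39). The summed collagen IV ratio (−0.47) and the median over its 6 genes (0.27) therefore had opposite signs.

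Genes of the remaining classes were highest in several gates. Col8a1, a short-chain collagen of vessel and corneal matrices, was highest in Otor and Emcn mesenchyme (590 CPM, 331 in fibroblast-like cells) and had a library ratio of −0.04. Col28a1, known from peripheral nerve, was highest in glia-like cells (68.3 CPM, next 23.4 in Opcml- and Mfap4-marked mesenchyme). Its ratio was −1.27 (−1.66 to −0.89), −1.35 without bone-marker cells and −0.82 when the endothelial-, pericyte- and glia-like cells were left out too. Collagen VI, a beaded filament around cells, had Col6a1 highest in fibroblast-like cells (133 CPM) and Col6a2 in Otor and Emcn mesenchyme (80.9 CPM). Col6a3 was highest in pericyte-like cells (177 CPM) and next in Opcml and Mfap4 mesenchyme (142 CPM), and had a ratio of −0.75 with and −0.84 without bone-marker cells. Col15a1 had 40 and 211 UMIs, and a ratio of −2.16 with and −1.54 (−2.11 to −0.99) without them. Leaving out the endothelial-, pericyte- and glia-like cells as well, it was −1.32.

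Other collagens were closer between the libraries. Col16a1, a fibril-associated gene, was highest in glia-like cells (78.2 CPM) and had 17.6 and 23.9 CPM in the libraries, a ratio of −0.44. Col14a1, a fibril-associated relative, was highest in glia-like (37.3 CPM) and fibroblast-like cells (36.5 CPM) and had a ratio of 0.43 (0.07 to 0.79). Its ratio was 1.47 (0.94 to 2.03) when bone-marker, endothelial-, pericyte- and glia-like cells were left out. These genes share the glia-like gate and differ in sign.

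Col20a1 was near equal in Opcml and Mfap4 mesenchyme (31.7 CPM) and Gal- and Cck-rich epithelium (31.6 CPM), with a ratio of −0.10. Membrane-spanning Col23a1 (150 CPM) and secreted Col26a1 (53.2 CPM) were highest in Otor and Emcn mesenchyme, with ratios of −0.12 and −0.32 that went to −0.24 and −0.42 without bone-marker cells. Col27a1 had 38.8 and 32.3 CPM (0.26), Col4a4 10.9 and 8.69 CPM (0.32), and Col17a1 5.27 and 4.61 CPM (0.20, −0.21 to 0.60). None of these 6 genes was 2-fold apart. Col6a1 and Col6a2 had ratios of −0.23 and −0.46 with and of 0.06 and −0.12 without bone-marker cells, so of collagen VI the chain that stayed lower was Col6a3.

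Ratios were then taken within the 5 gates that held at least 50 cells in each library. In Otor and Emcn mesenchyme (85 cocktail, 65 vehicle cells) the interval lay below 0 for 19 and above 0 for 3 of 30 collagens with at least 20 UMIs, and the median was −0.70 beside 0.00 for all genes. By sign, 24 of the 30 ratios lay below 0, beside 49.9% of all genes. At least 2-fold lower were 9, beside 5.11% of all genes, and 3 were higher, beside 4.16%. Col3a1 had 374 and 1148 CPM, a ratio of −1.62 (−1.77 to −1.47), and Col1a2 had 647 and 1729 CPM, −1.42 (−1.54 to −1.30). Col2a1 had 152 and 285 CPM, −0.91 (−1.17 to −0.65), but 1 cell in each library held 91 of its 210 cocktail and 75 of its 307 vehicle UMIs. Col3a1, Col1a2 and Col2a1 are fibril genes, here in cells outside the bone gate. Col4a3 and Col4a4, partner chains, went the other way: Col4a3 had 30 and 2 UMIs, and Col4a4 had 41.9 and 13.9 CPM, a ratio of 1.59 (0.75 to 2.52). The gate did not hold the same markers in both libraries. Otor stood at 631 and 1405 CPM, Coch at 338 and 145, and Otos at 168 and 0, while Emcn stood at 582 and 457. The part of this difference in the collagen ratios was not tested.

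In glia-like cells (53 and 185) the interval lay below 0 for 10 and above 0 for 2 of 23 collagens, with a median of −0.43 beside 0.02 for all genes. By sign, 17 of the 23 ratios lay below 0, beside 48.2% of all genes. At least 2-fold lower were 5 (Col1a1, Col1a2, Col3a1, Col6a1 and Col18a1, beside 6.66% of all genes) and 2 were higher (6.38%). Col18a1 had 202 and 475 CPM, a ratio of −1.23 (−1.53 to −0.95), and Col5a2 98.3 and 197 CPM, −1.01 (−1.44 to −0.59). Col4a1 had −0.60, Col4a2 −0.44 and Col28a1 −0.38 (−0.996 to 0.19), so the nerve collagen Col28a1 was not separable between libraries within the gate. The 2 higher genes were Col9a2, with 22 and 11 UMIs (39.3 and 5.93 CPM, a ratio of 2.73, 1.62 to 3.92), and Col4a5, with 21 and 16 UMIs (37.5 and 8.62 CPM, 2.12, 1.11 to 3.16). With the gate set at 10 marker UMIs per 10000 in place of 5, Col9a2 had 0.18 and Col4a5 −1.41. The lower calls other than Col18a1 drew a large part of their vehicle UMIs from 1 cell. Of Col3a1, 91 of the 114 vehicle UMIs and of Col1a1 62 of the 69 came from 1 cell each, as did 108 of 332 for Col1a2 and 25 of 25 for Col6a1. The glial marker Cdh19 stood at 136 and 450.0 CPM. The part of this marker difference was not tested.

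Epithelial gates showed the cochlear collagens apart from bone and vessel cells. In Ceacam16-marked cells (144 and 100), Col11a1 had 98.1 and 54.8 CPM, a ratio of 0.84 (0.48 to 1.22). Col11a2 had 72.1 and 43.8 CPM there, 0.72 (0.30 to 1.14). Both chains of collagen XI were thus higher in cocktail in these cells, and Col9a2 was not separable (84.7 and 92.9 CPM, −0.13, −0.45 to 0.19). Col9a3 had −0.64 (−1.16 to −0.13). Of 17 collagens in this gate, 1 was at least 2-fold lower (6% of all genes) and 2 were higher (2.38%). Ceacam16 itself stood at 794 and 530.0 CPM and Otogl at 31.9 and 155 CPM, and the part of this difference was not tested.

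In Gal- and Cck-rich epithelium (243 and 174 cells), Col9a2 had 95.9 and 51.9 CPM, a ratio of 0.89 (0.60 to 1.18). Col9a3 had 0.34 (0.07 to 0.61), and Col9a1, the other chain of collagen IX, had 5 and 15 UMIs and −1.81 (−3.62 to −0.28). Col4a5 had −0.66 (−0.98 to −0.34) and Col17a1 13.7 and 13.4 CPM, a ratio of 0.02. Of 21 collagens, 3 were at least 2-fold lower (Col9a1, Col26a1 and Col28a1, beside 3.84% of all genes) and 2 higher (Col1a2 and Col7a1, beside 2.16%), each with 30 UMIs or fewer. The remaining epithelium, marked by Epcam and keratins (253 and 333 cells), had the interval below 0 for 1 and above 0 for 10 of 25 collagens. The median there was 0.38 beside 0.00 for all genes, and 6 of the 25 ratios lay below 0, beside 50.7% of all genes. Col9a2 had 70.5 and 40.9 CPM, 0.79 (0.51 to 1.07), Col4a5 83.2 and 47.0 CPM, 0.82 (0.57 to 1.09), and Col18a1 114 and 82.0 CPM, 0.48 (0.28 to 0.69). At least 2-fold lower were 0 (4.16%) and higher were 3 (4.13%), namely Col4a6, Col19a1 and Col1a2, the last with 37 of its 58 cocktail UMIs in 1 cell. Col9a2 was thus higher in cocktail in these 2 gates and not separable in Ceacam16-marked cells. Its ratio in glia-like cells rested on low counts and depended on the gate setting, as given above. Col4a5 differed in sign between Gal- and Cck-rich epithelium and the remaining epithelium, which was not tested.

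Shares of cells with a UMI were compared after thinning each cell to 2000 UMIs, which left out 313 cocktail and 193 vehicle cells. Col1a1 was then found in 2.07% (1.28 to 3.14) of the cocktail and 4.17% (3.18 to 5.36) of the vehicle cells, and in 1.22% and 1.16% without bone-marker cells. Unthinned shares were 3.39% and 6.502%. In Gal- and Cck-rich epithelium, Col1a1 was found in 0 of 166 and 1 of 143 thinned cells (median depths before thinning 5163 and 14936 UMIs). Col4a1 was found in 7.48% and 13.3% of thinned cells (23.2% and 29.5% unthinned), so its lower level went with fewer positive cells. Col9a2 was found in 8.86% and 5.10% (26.1% and 21.2% unthinned). Within Gal- and Cck-rich epithelium its thinned shares were 16.9% and 3.50%, while unthinned shares were 37.4% and 39.1% in cells of unequal depth. Thinned to 5000 UMIs they were 33.3% (25.1 to 42.4) and 23.2% (16.1 to 31.6), with overlapping intervals, so the gap in this gate depended on the thinning depth.

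Few genes that make, process or bind collagen were 2-fold apart, as among all genes (4.85% lower, 3.55% higher). Of 20 genes for chain hydroxylation and folding, 0 were 2-fold apart, with a median of −0.09 and of 0.12 without bone-marker cells. Serpinh1, the collagen chaperone HSP47, had 464 and 592 CPM (−0.35), and Crtap, a subunit of the prolyl hydroxylation complex, 43.9 and 31.0 CPM (0.50). P4ha3, a prolyl hydroxylase subunit, had −0.42, and Plod3, a lysyl hydroxylase, 0.34. Of 16 processing and cross-linking genes, 1 was lower (Fmod, a fibril-binding proteoglycan, with 25 and 119 UMIs), and the median was 0.22. The procollagen proteinase genes Tll1 and Tll2 had −0.76 and 0.70, and the lysyl oxidase gene Loxl3 0.61. Pcolce2, an enhancer of such cleavage, had −0.72, and 0.91 (0.44 to 1.39) without bone-marker cells, so its sign turned. Serpinh1 also changed sign without them (0.05). Of 10 collagen receptor genes, 1 was lower (Itga2, 36 and 109 UMIs), with a median of −0.18. Itga1, whose integrin binds collagen IV, had −0.96, and Itga11, of an integrin for collagen I, −0.59. The uptake receptor Mrc2 had 0.14 and the kinase receptor Ddr2 0.22.

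The 15 other basement membrane genes had a median of −0.45, and −0.52 without bone-marker cells. In the whole library 12 of them lay below 0, beside 55.7% of all genes. Hspg2 (perlecan) had 27.3 and 51.5 CPM, a ratio of −0.92, and Nid1 (nidogen, which joins laminin to collagen IV) 40.2 and 68.4 CPM, −0.77. Lamb3, a laminin chain of epithelial basement membranes, had a ratio of 0.51. Lama3 was the 1 gene at least 2-fold lower, with 4 and 22 UMIs, beside 4.85% of all genes. Hspg2 and Nid1 were thus lower in the library with 0 endothelial- and pericyte-like cells, and the part of those cells in their ratios was not tested.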

How the data were processed

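The authors deposited unnormalised UMI counts of every gene in every barcode (10x 3′ kit, version 3.1). Cell Ranger 5.0.0 produced them, per the file headers, and the submitters' processing notes name Cell Ranger 5.0, STAR, Seurat 3.2.2, mm10 and GRCm38. Barcodes under 500 UMIs, under 300 genes or above 20% mitochondrial UMIs were dropped, which removed 74 cocktail and 104 vehicle barcodes of 1403 and 1688 (about 1400 and 1700 cells were stated). No doublet caller was run. Cells that passed more than 1 gate (62 and 141) were left out as an alternative, and free RNA was not subtracted. Counts were summed per library or gate and scaled to CPM. Log2 ratios have exact conditional intervals, and levels have exact Poisson intervals. A gene was called at 2-fold with at least 20 UMIs and a log2 ratio, with 0.5 added to each count, past 1 or −1. Because counts at the 3′ end depend on the transcript end, levels were compared between cells and not between genes. Genes were named at 200 UMIs or more, pathway genes as the 2 lowest and 2 highest ratios with at least 200 UMIs and any called gene, and gate ratios needed 50 cells in each library. A pathway gene that this rule would name is not reported here. Scripts used Python 3.11.15, numpy 2.4.6, scipy 1.17.1 and pandas 2.3.3, and the ratios and their intervals were checked on simulated Poisson counts per library. Those counts were not clustered in cells, so the check does not cover the spread between cells. Positions are GENCODE M21, which lists all 44 genes, and promoters came from RefSeq (GRCm38.p6), which matched 35. The gene set, lists, gates and alternatives were chosen with earlier results of these data known.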

Additional observations from a re-analysis of the deposited data

How the results depend on the processing

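No paired analysis was possible because each condition has 1 library. Summed over all collagens, the log2 ratio (−0.67) was −0.70 without cells that passed more than 1 gate. Without bone-marker cells (−0.19) it was −0.22 without such cells, −0.16 without endothelial- and pericyte-like cells and −0.087 without glia-like cells as well. With the mean of per-cell CPM, lower calls numbered 10 in place of 6 (Col5a1, Col6a3, Col18a1 and Col24a1 added) and higher calls 2 in place of 1 (Col4a3 added). Without bone-marker cells lower calls were then 7 in place of 3, and 1 (Col15a1) when endothelial-, pericyte- and glia-like cells were left out. The call of Col19a1 as higher is weak: at least 100 UMIs gave 0 higher calls with or without bone-marker cells, and no minimum gave 2 (Col6a4 added). Without bone-marker cells, 0 higher calls were also left without each gene's highest cell, in cells with at least 5000 UMIs, without cells in more than 1 gate, and without endothelial- and pericyte-like cells.

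Calls within gates depended on the gate. The marker level per 10000 varied below is not part of the rule for Gal- and Cck-rich epithelium. At other levels its cells changed only through the gates before it in the order. At 2 marker UMIs per 10000 in place of 5, the glia-like gate had 14 lower and 4 higher calls (5 and 2), Gal- and Cck-rich epithelium 1 and 1 (3 and 2), Ceacam16-marked cells 3 and 1 (1 and 2), Otor and Emcn mesenchyme 5 and 5 (9 and 3), and the remaining epithelium 1 lower (0). At 10 per 10000, higher calls were 1 in the glia-like gate, lower and higher calls 3 and 0 in Ceacam16-marked cells, and lower calls 3 in the remaining epithelium. With cells of a single gate only, Gal- and Cck-rich epithelium had 0 and 0 calls and Ceacam16-marked cells 3 and 1. At 2 per 10000, 2 named genes in place of 4 were highest in glia-like cells. Sign changes were counted only for ratios at or past 1 or −1 in the main setting. They were Col4a5 in glia-like cells (−1.41 at 10 per 10000) and Col25a1 in Otor and Emcn mesenchyme (1.93 at 10 per 10000, 0.012 without its highest cell). The cause was not tested. Col6a1 in glia-like cells has no ratio without its highest cell, which held all 25 of its UMIs. In all, 72 summary values were the same and 34 moved. Of the single-gene values 861 were the same, 379 moved and 3 changed sign by that count. Smaller ratios that changed sign are filed as the same or moved. Of the moved values, 135 came from no thinning and 125 from thinning to 5000 UMIs, and shares of cells with a UMI change with depth. Alternatives at 2 per 10000 and those that leave out more gates were chosen after seeing the data. Depth limits genes under 20 UMIs.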

Other observations

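The fibroblast-like gate held 38 cocktail and 37 vehicle cells, too few for the ratios above. Summed over all collagens it had 47.3 and 44.5 UMIs per 10000, against 31.5 and 60.9 in Otor and Emcn mesenchyme. In fibroblast-like cells Col1a1 stood at 213 CPM (187 to 242) in cocktail and 193 CPM (164 to 226) in vehicle, Col2a1 at 220.3 (194 to 250) and 182 (153 to 214), and Col11a1 at 116 and 147. Col3a1 stood at 810 CPM (758 to 864) and 640 CPM (586 to 698) there, the reverse of its order in Otor and Emcn mesenchyme. Col23a1, a transmembrane collagen, stood at 77.0 CPM (61.6 to 95.1) and 31.1 CPM (20.1 to 45.9), with 26 of its 86 cocktail UMIs in 1 cell. Summed by class, transmembrane collagens had a log2 ratio of 1.26 (0.63 to 1.94), fibril-associated 0.30 (0.09 to 0.51) and beaded filament −0.33 (−0.58 to −0.07). In Vmo1- and Tecta-marked epithelium, Col2a1 had 12 UMIs in 30 cocktail cells and 1 UMI in 58 vehicle cells, and 3 of the 30 cocktail cells held them.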
